A study of Homo sapiens with 4 samples.

Results

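The genes described here are those that carry peptides to the cell surface on MHC class I molecules. They were taken by name from the deposited table of gene expression as 9 genes, namely HLA-B, HLA-C, HLA-E, HLA-F, B2M, TAP1, TAP2, TAPBP and NLRC5. The rule that names them uses no measured value, but it was drawn up with earlier results of these data known. Under the identifiers of GENCODE version 44, 8 of the 9 were among the 18885 identifiers of the table, and HLA-F was not analysed here. The RNA-seq was done in MV4-11, a human acute myeloid leukemia (AML) cell line of the myelomonocytic type, where 2 control libraries (sh-NC) were set against 2 with ANP32B knocked down (sh-ANP32B). In the knockdown cells a lentiviral short hairpin RNA against ANP32B, a nuclear histone chaperone, was expressed under puromycin selection. For the control cells the labels state that no shRNA was used, but the study names a control hairpin, so any effect of transduction and selection cannot be told apart from the loss of ANP32B if the controls carried none. All 4 libraries came from the same cell line, and nothing in the labels says that they came from separate cultures, so p-values measure only the spread between these libraries. The values are TPM, transcript abundances that are corrected for gene length and brought to a fixed sum per library, which allows levels to be compared between genes but keeps no read numbers.

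In class I presentation, a heavy chain encoded by an HLA gene is folded in the endoplasmic reticulum with the light chain beta-2 microglobulin, encoded by B2M. Peptides cut by the proteasome in the cytosol are pumped in by the transporter formed of TAP1 and TAP2, and tapasin, encoded by TAPBP, holds the empty heavy chain at the transporter until a peptide binds. Cytotoxic T cells read the peptides on HLA-B and HLA-C, and natural killer cells read HLA-E and the loss of class I as a whole. NLRC5 is the transactivator that drives the promoters of class I heavy chain genes and of B2M. It acts together with RFX, CREB/ATF and NF-Y factors that bind these promoters, and interferons raise the whole pathway.

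After ANP32B knockdown, 4 of the 8 genes rose, namely TAPBP, NLRC5, B2M and HLA-C, and none fell. The tapasin gene TAPBP rose 1.77-fold and the transactivator gene NLRC5 rose 1.53-fold on the scale of TPM + 1, while B2M rose 1.37-fold and HLA-C rose 1.31-fold. HLA-B, HLA-E and the transporter genes TAP1 and TAP2 did not pass the test. The test was limma applied to log2(TPM + 1) of 16937 genes that reached 1 TPM in 2 or more libraries, and a gene passed at a Benjamini-Hochberg adjusted p below 0.05. By this rule 26.0% of all genes tested rose and 19.7% fell, so the share of class I genes that rose has to be read against a background in which many genes moved. With a log2 fold change beyond 0.5 asked for as well, the fold limit of the study's methods, TAPBP and NLRC5 were called higher and no member was called lower, against 17.9% of all genes called higher and 10.1% called lower. The median log2 fold change was 0.38 over the 8 genes and 0.08 over all genes tested. B2M and HLA-C stayed inside this limit, which B2M passed at 0.52 after quantile normalization. The targeted gene ANP32B held 14.3% of its control mean in the knockdown libraries, with a log2 fold change of -2.78.

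**Figure D1:**
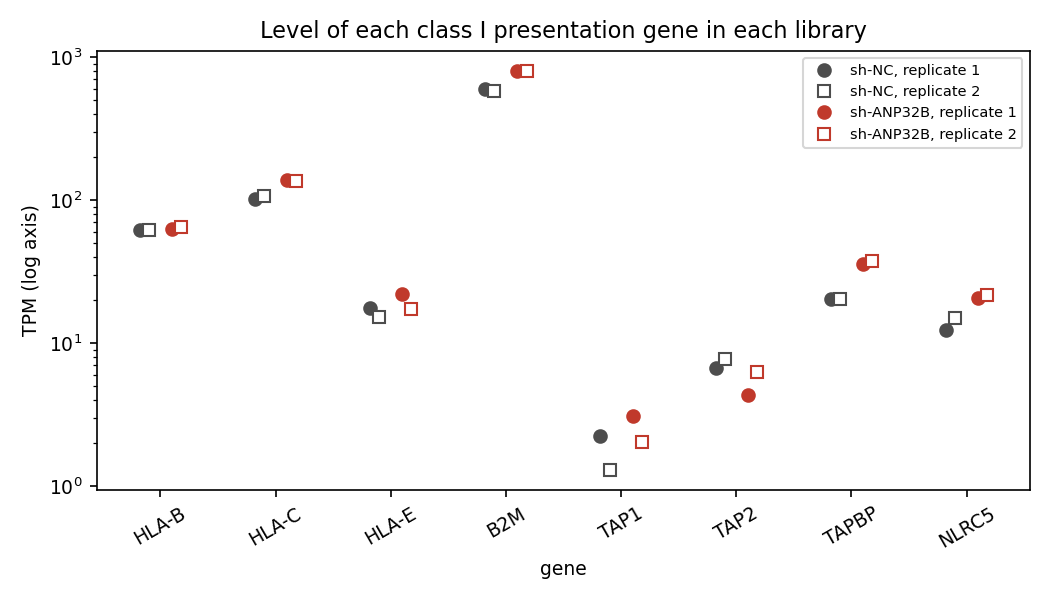
Level in TPM, on a log axis, of each of the 8 class I presentation genes in each library, with circles for replicate 1 and squares for replicate 2, grey for sh-NC and red for sh-ANP32B. B2M stands highest and TAP1 lowest in both groups, and the red points lie clear above the grey ones for HLA-C, B2M, TAPBP and NLRC5.

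Markers of the labelled cell type were present, since 7 of 8 myeloid leukemia genes reached 1 TPM in 2 or more libraries, and MPO was not listed. In the controls FLT3 had 6.20 and 6.30 TPM, CD33 had 52.8 and 53.0 TPM and PTPRC had 62.3 and 64.1 TPM. Monocyte markers moved with the knockdown beside the class I genes. Of a list of 12 monocyte markers 9 were listed, and CD14, CD163 and VCAN were not. Of the 9, 8 rose, beside 26.0% of all genes tested. The summed TPM of the 9 were 531 and 525 in the controls against 5625 and 5573 after knockdown. LYZ, the lysozyme gene, made up most of these sums, and without it they were 60.4 and 61.4 TPM in the controls against 317 and 313 TPM after knockdown. LYZ was highest with a log2 fold change of 3.50 and CSF1R lowest with 0.56. Of the other lineages, no erythroid marker was listed, and CD2 was the listed T cell marker, at 0.521 and 0.442 TPM in the controls against 3.62 and 3.63 TPM after knockdown. CD3D, CD3E, CD3G, CD8A and TRAC were not listed. The summed TPM of the 3 listed B cell markers were 10.8 and 11.5 in the controls against 4.10 and 6.04 after knockdown. NK cell markers summed to 85.2 and 84.3 TPM in the controls against 79.6 and 74.8 TPM after knockdown, the sum of NKG7, which fell, and KLRF1, which rose. The mitochondrial share of the TPM was 15.9% and 15.4% in the controls against 17.6% and 17.4% after knockdown, also without overlap. The part of these markers and of this share in the differences of the class I genes was not tested.

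Several limits of the table bear on these genes in particular. Of the 18885 identifiers, 1595 had no symbol in the annotation of the main chromosomes, and they held from 3.22% to 3.62% of the TPM of a library. The hg38 build holds alternate sequences of the MHC, on which the genes of this region carry identifiers of their own. Such identifiers could not be named here. The region holds the HLA genes and also TAP1, TAP2, TAPBP and the proteasome genes PSMB8 and PSMB9. The TPM given for each of these genes are therefore those of its identifier on the main chromosome 6. Reads assigned to another copy of the same locus are not in them, so a low TPM need not be a low level in the cells. HLA genes also differ between people and cell lines, and the alleles of MV4-11 were not compared with the reference. In the reference, the coding sequences of HLA-B and HLA-C are identical at 92.5% of 1086 aligned bases, those of HLA-B and HLA-E at 86.8% of 1072 and those of HLA-C and HLA-E at 86.3% of 1074. Reads of these genes could thus be split or exchanged, and their levels are uncertain in that respect.

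The promoters of 4 of the genes are shown because they set beside each other 3 genes that rose (HLA-C, B2M and TAPBP) and HLA-B, a close relative of HLA-C that did not pass the test. Of the 9 genes, 7 had a promoter in the RefSeq table (GRCh38.p14), and HLA-E and NLRC5 had none there. Each window runs 5′ to 3′ over the 250 bases before the RefSeq start of the gene, which for each of the 4 lies inside the span that GENCODE gives the gene. It was searched on both strands for GGGGATT followed directly by CCCC (the NF-kB site of enhancer A of class I genes), GAAA and again GAAA with 2 bases of any kind between (a form of the interferon response element), TGACG (the core of a CRE site, as in the X2 box), CCAAT (the box bound by NF-Y, the Y box of the class I module) and CACGTG (the E-box bound by MYC and MAX). Capitals mark the matches. The HLA-B window lies at chr6:31357180-31357429 (minus strand), the HLA-C window at chr6:31272093-31272342 (minus strand), the B2M window at chr15:44711267-44711516 (plus strand) and the TAPBP window at chr6:33314079-33314328 (minus strand).
HLA-B: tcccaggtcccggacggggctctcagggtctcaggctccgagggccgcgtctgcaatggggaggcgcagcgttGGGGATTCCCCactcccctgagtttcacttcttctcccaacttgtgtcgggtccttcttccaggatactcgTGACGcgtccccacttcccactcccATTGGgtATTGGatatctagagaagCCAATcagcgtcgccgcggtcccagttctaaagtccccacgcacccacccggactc
HLA-C: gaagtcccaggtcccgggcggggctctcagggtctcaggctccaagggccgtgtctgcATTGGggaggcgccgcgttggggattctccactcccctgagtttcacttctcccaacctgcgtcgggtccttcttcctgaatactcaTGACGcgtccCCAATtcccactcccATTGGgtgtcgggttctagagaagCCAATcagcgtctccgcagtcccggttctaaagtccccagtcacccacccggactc
B2M: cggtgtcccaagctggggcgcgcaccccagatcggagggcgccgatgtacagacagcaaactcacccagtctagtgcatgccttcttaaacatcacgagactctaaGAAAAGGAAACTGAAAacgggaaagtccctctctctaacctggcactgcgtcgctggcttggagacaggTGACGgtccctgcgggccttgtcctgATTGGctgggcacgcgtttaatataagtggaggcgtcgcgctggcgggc
TAPBP: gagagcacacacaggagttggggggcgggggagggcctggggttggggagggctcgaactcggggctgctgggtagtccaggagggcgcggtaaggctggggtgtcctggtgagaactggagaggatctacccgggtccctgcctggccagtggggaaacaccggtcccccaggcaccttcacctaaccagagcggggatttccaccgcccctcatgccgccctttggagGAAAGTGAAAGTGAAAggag
HLA-B and HLA-C both held TGACG with ATTGG, the reverse complement of CCAAT, downstream of it, which began 81 bases before the start in HLA-B and 80 bases before it in HLA-C. The NF-kB site was found in HLA-B, as in 0.0313% of all 35116 promoters of the table. B2M and TAPBP each held a pair of overlapping matches to the interferon response element, which 3.02% of all promoters held, and TAP1, TAP2 and HLA-F held it as well. HLA-B and HLA-C held no match to this exact form. Other forms of the element were not searched for, so these windows may still hold one. TGACG was found in 21.2% of all promoters and CCAAT in 32.0%, so these letters by themselves are common. CACGTG, found in 6.34% of all promoters, was in none of the windows of the 7 genes. A match here describes letters in a window and is not a measured binding site.

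Of the heavy chain genes, HLA-C (ENSG00000204525) had the highest level and was the heavy chain gene that rose. Its position in hg38 is chromosome 6, minus strand, 31268749 to 31272130. HLA-C showed 102 and 106 TPM in the controls against 137 and 136 TPM after knockdown, so both knockdown libraries lay above both controls. The log2 fold change was 0.39 with an SE of 0.045 and an adjusted p of 0.00154 in limma. In bulk libraries such as these, a change in the share of cells that express a gene and a change in its RNA per cell cannot be told apart. HLA-B (ENSG00000234745), its neighbour on the minus strand from 31353872 to 31367067, had 61.6 and 61.8 TPM in the controls against 63.0 and 65.0 TPM after knockdown. The knockdown values were the higher ones but by little, and the log2 fold change was 0.05 with an SE of 0.050 and an adjusted p of 0.426 in limma, with a 95% interval from -0.07 to 0.18. After median-of-ratios scaling of the libraries the value of HLA-B was -0.04. Less the median of all genes under the same scaling, these values were -0.03 and -0.04, and the value after quantile normalization was 0.11. HLA-B shares 1421 exonic bases with the pseudogene DHFRP2 on the same strand and 671 with ENSG00000271581 on the opposite strand, and the handling of strand is not given in the sources used here.

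HLA-E, which presents peptides from the leader sequences of other class I chains to natural killer cells, lies on the plus strand of chromosome 6 from 30489509 to 30494194. HLA-E showed 17.6 and 15.4 TPM in the controls against 22.1 and 17.2 TPM after knockdown. The groups overlapped, and the knockdown libraries differed from each other more than the control libraries did. The log2 fold change of HLA-E was 0.24 with an SE of 0.141 and an adjusted p of 0.223 in limma. It was 0.06 without replicate 1 and 0.41 without replicate 2 of sh-ANP32B, and 0.14 without replicate 2 of sh-NC. The pseudogene HLA-K, at 2.21 and 1.76 TPM in the controls against 1.74 and 1.62 TPM after knockdown, did not pass the test (limma, adjusted p = 0.579), and HLA-G, HLA-H, HLA-J and HLA-L were not analysed here.

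The light chain gene B2M (ENSG00000166710) lies apart from the MHC, on the plus strand of chromosome 15 from 44711358 to 44718851. B2M showed 595 and 576 TPM in the controls against 804 and 804 TPM after knockdown. The knockdown libraries were both higher and nearly equal. The log2 fold change of B2M was 0.46 with an SE of 0.035 and an adjusted p of 4.09e-04 in limma, and its 95% interval ran from 0.37 to 0.54. B2M was among the most abundant transcripts, with 1.09% of the genes tested above its mean level in sh-NC.

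Ratios within a library do not depend on how the libraries were scaled. The summed TPM of HLA-B, HLA-C and HLA-E were 181 and 184 in the controls against 223 and 218 after knockdown. Relative to B2M, this sum was 0.304 and 0.319 in the controls against 0.277 and 0.271 after knockdown, so that the light chain transcript rose more than the heavy chain transcripts listed here. Within the sum, HLA-C held 56.3% and 58.0% in the controls against 61.7% and 62.2% after knockdown. HLA-B held 34.0% and 33.7% in the controls against 28.3% and 29.9% after knockdown. The share of HLA-C was thus higher and that of HLA-B lower in both knockdown libraries, and the ratio of HLA-C to HLA-B went from 1.69 ± 0.048 (SD, n = 2) to 2.13 ± 0.067 (SD, n = 2). The share of HLA-E overlapped between the groups. An exact permutation test of such a ratio over 2 and 2 libraries has a smallest two-sided p of 0.333, so these ratios are given without a test.

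TAPBP showed the highest log2 fold change of the 8 genes. It lies at the far end of the class II region, on the minus strand of chromosome 6 from 33299694 to 33314284. TAPBP (ENSG00000231925) had 20.3 and 20.4 TPM in the controls against 35.9 and 37.6 TPM after knockdown, with no overlap. The log2 fold change was 0.82 with an SE of 0.068 and an adjusted p of 5.11e-04 in limma. TAPBP shares 1397 exonic bases with ENSG00000289100 on the opposite strand. Both transporter genes, by contrast, had low TPM under their identifiers on the main chromosome 6, which leave out reads assigned to alternate copies. TAP1, on the minus strand from 32845209 to 32853816, had 2.25 and 1.31 TPM in the controls against 3.11 and 2.04 TPM after knockdown. TAP2, just beside it on the minus strand from 32821833 to 32838739, had 6.68 and 7.72 TPM in the controls against 4.38 and 6.33 TPM after knockdown. The groups overlapped for TAP1, and for TAP2 both knockdown libraries lay below both controls. The log2 fold changes were 0.37 for TAP1 (95% interval from -0.31 to 1.04 at an adjusted p of 0.312 in limma) and -0.38 for TAP2 (95% interval from -0.86 to 0.10 at an adjusted p of 0.159 in limma). These intervals are wide enough to hold a change as large as that of HLA-C in TAP1 and a fall of the same size in TAP2. TAP1 was 0.61 without replicate 1 and 0.12 without replicate 2 of sh-NC, 0.15 without replicate 1 and 0.58 without replicate 2 of sh-ANP32B, and 0.07 after quantile normalization. TAP2 was -0.16 without replicate 1 and -0.61 without replicate 2 of sh-ANP32B, and -0.59 after quantile normalization. TAP2 also shares 2023 exonic bases with the transcript ENSG00000250264 on the same strand.

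NLRC5 (ENSG00000140853), on the plus strand of chromosome 16 from 56989485 to 57083531, had 12.4 and 14.9 TPM in the controls against 20.9 and 21.7 TPM after knockdown. Both knockdown libraries were higher, and the controls differed from each other more than the knockdown libraries did. The log2 fold change of NLRC5 was 0.61 with an SE of 0.110 and an adjusted p of 0.00773 in limma. Without replicate 1 of sh-NC it was 0.49, which is inside the fold limit, so that TAPBP was then the one member called higher.

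**Figure D2:**
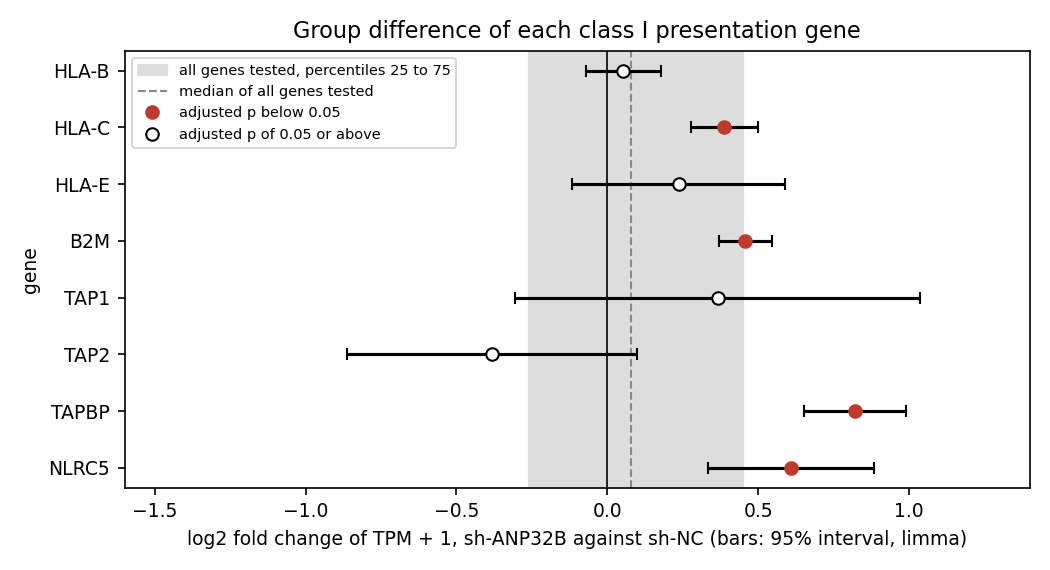
Log2 fold change of TPM + 1, sh-ANP32B against sh-NC, of each of the 8 genes (points, filled red where the adjusted p from limma is below 0.05), with 95% intervals as bars. TAPBP at 0.82 and NLRC5 at 0.61 lie outside the grey band of percentiles 25 to 75 of all genes tested, from -0.26 to 0.45, HLA-C at 0.39 lies within it and B2M at 0.46 just past its edge.

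Ordered by level, the 8 genes in sh-NC ran from B2M through HLA-C, HLA-B, TAPBP, HLA-E, NLRC5 and TAP2 to TAP1, and no neighbours in this order overlapped between libraries. In sh-ANP32B the order was the same except that NLRC5 (mean 21.3 TPM) and HLA-E (mean 19.7 TPM) changed places, and the values of these 2 genes overlapped there. In all, 6 of the 8 genes had no overlap between the groups, of which HLA-B, HLA-C, B2M, TAPBP and NLRC5 had both knockdown libraries above both controls, as 42.5% of all genes tested did. TAP2 had both below, as did 32.1% of all genes. The 5 genes whose profile over the 4 libraries was nearest to that of B2M, by Euclidean distance of log2(TPM + 1) less the gene's mean and taken from the 9633 genes whose mean reached 10 TPM, were PIWIL4, RAB5B, SEPTIN2, RNF7 and CEBPB. Their log2 fold changes lay between 0.46 and 0.47. With 4 libraries, this likeness says little beyond a shared size of difference.

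The chaperones and peptidases that serve class I in the endoplasmic reticulum were described as a list of 8 genes. Of these, 4 rose, 1 fell and 3 did not pass the test, beside 26.0% and 19.7% of all genes that rose and fell, with a median log2 fold change of 0.20. TAPBPL, a homologue of tapasin that edits the bound peptides, had 9.42 and 10.8 TPM in the controls against 15.4 and 17.6 TPM after knockdown (log2 fold change 0.66 at an adjusted p of 0.00776 in limma). ERAP1, the aminopeptidase that trims peptides to their final length, had 23.7 and 22.8 TPM in the controls against 34.1 and 32.9 TPM after knockdown (log2 fold change 0.51 at an adjusted p of 0.00265 in limma). Both knockdown libraries were above both controls for each of these peptidase and editor genes. HSPA5 and PDIA3, chaperones of general protein folding of which PDIA3 is also part of the peptide-loading complex, rose by smaller log2 fold changes of 0.27 and 0.12. Beyond the fold limit TAPBPL and ERAP1 were called higher, beside 17.9% of all genes. After quantile normalization 1 gene of the list was called higher, beside 2208 of 16937 genes. After median-of-ratios scaling it was also 1, beside 2422 of 16869 genes. This number moved as well when single libraries were dropped. CANX, which holds new heavy chains before B2M binds, fell, with a log2 fold change of -0.24 (limma, adjusted p = 0.00290). CALR, the chaperone of the loading complex itself, was level at 1082 and 1083 TPM in the controls against 1083 and 1093 TPM after knockdown (limma, adjusted p = 0.876). UGGT1 and ERAP2 did not pass the test.

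The source of the peptides was described by the proteasome. Immune cells exchange the catalytic subunits PSMB5, PSMB6 and PSMB7 for the immunoproteasome subunits PSMB8, PSMB9 and PSMB10, which favours peptides that fit class I, and PSME1 and PSME2 form the PA28 cap. Of the 6 genes of the immunoproteasome list none rose and 1 fell, PSMB9, whereas all 3 constitutive catalytic subunits fell. Over all genes tested, 26.0% rose and 19.7% fell. PSMB5 had 101 and 96.0 TPM in the controls against 25.6 and 24.3 TPM after knockdown, a log2 fold change of -1.94 (limma, adjusted p = 6.52e-05). PSMB8, which takes its place, had 6.87 and 5.14 TPM in the controls against 8.02 and 7.51 TPM after knockdown and did not pass the test (limma, adjusted p = 0.152). The ratio of PSMB8 to PSMB5 therefore went from 0.0677 and 0.0536 to 0.313 and 0.309, and most of that difference lay in PSMB5. The ratio of PSMB10 to PSMB7 was 0.448 and 0.429 in the controls against 0.531 and 0.549 after knockdown. That of PSMB9 to PSMB6 went the opposite way, from 0.0430 and 0.0276 to 0.0235 and 0.00963. PSMB9 lies beside TAP1 on chromosome 6, so the limit of alternate copies holds for it too. Its values were low and uneven, with 7.07 and 4.31 TPM in the controls against 2.94 and 1.18 TPM after knockdown (log2 fold change -1.16 at an adjusted p of 0.0426 in limma). This call was lost with a pseudocount of 0.1, without replicate 1 of sh-NC and without replicate 2 of sh-ANP32B. Of the 5 cytosolic peptidases tested, NPEPPS and NRDC rose and THOP1 fell, beside 26.0% and 19.7% of all genes that rose and fell. THOP1, a peptidase that destroys many class I peptides, had a log2 fold change of -0.80 (limma, adjusted p = 8.67e-04).

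**Figure D3:**
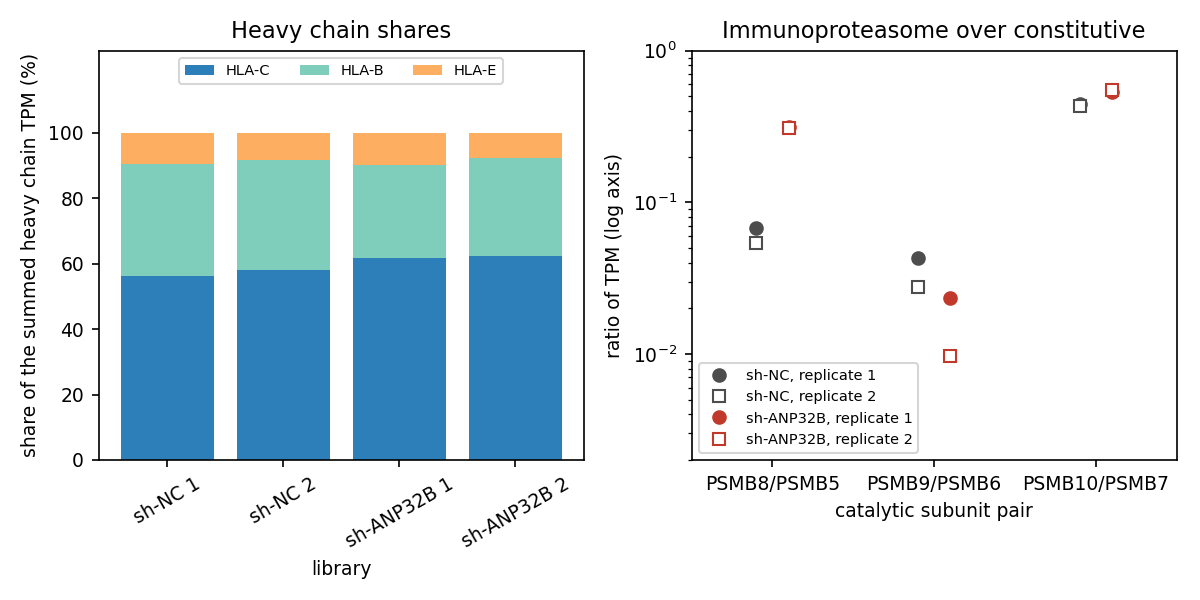
Left, the share of the summed TPM of HLA-B, HLA-C and HLA-E that each gene holds in each library, as stacked bars in percent. Right, the ratio of TPM of each immunoproteasome subunit to the constitutive subunit it replaces, on a log axis, with circles for replicate 1 and squares for replicate 2. HLA-C takes a larger share in both sh-ANP32B libraries, and the ratio of PSMB8 to PSMB5 is near 0.3 there against less than 0.07 in sh-NC.

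Genes of factors that act on class I promoters moved about as often as genes in general. Of 18 genes, 4 rose, 5 fell and 9 did not pass the test, beside 26.0% and 19.7% of all genes that rose and fell, and the median log2 fold change of 0.07 was near that of all genes. Among the partners of NLRC5 in the RFX complex, RFX5 rose from 67.9 and 71.2 TPM to 87.9 and 81.0 TPM (log2 fold change 0.28 at an adjusted p of 0.0149 in limma). RFXAP fell from 17.3 and 19.7 TPM to 11.9 and 10.5 TPM (log2 fold change -0.68 at an adjusted p of 0.00588 in limma), and RFXANK did not pass the test. The subunits NFYA and NFYB of the factor that binds CCAAT fell, by log2 fold changes of -0.32 and -0.43, while NFYC did not pass. IRF2 rose with a log2 fold change of 0.47, whereas IRF1, RELA and NFKB1, which act through the interferon and NF-kB elements, did not pass. IRF8 was uneven after knockdown, at 266 TPM in replicate 1 and 364 TPM in replicate 2, while the controls had 291 and 315 TPM. EZH2, the methyltransferase of Polycomb repressive complex 2, which is known to silence class I genes in some tumors, fell from 94.3 and 100.3 TPM to 50.3 and 50.7 TPM. Its log2 fold change was -0.93 (limma, adjusted p = 2.04e-04). SUZ12 of the same complex fell by 0.35 on the log2 scale, and EED did not pass. PCGF1, of a variant of Polycomb repressive complex 1, rose with a log2 fold change of 0.56 (limma, adjusted p = 0.0122).

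Most of the receptor and signalling genes through which interferons act were higher. Of the 11 genes tested, 10 rose and none fell, beside 26.0% of all genes that rose and 19.7% that fell, and the median log2 fold change was 0.51 against 0.08 for all genes. The highest were STAT2, with 47.1 and 50.4 TPM in the controls against 122 and 111 TPM after knockdown (log2 fold change 1.24 at an adjusted p of 1.78e-04 in limma), and its partner IRF9, with 9.85 and 8.62 TPM and 23.4 and 22.2 TPM (log2 fold change 1.22 at an adjusted p of 5.61e-04 in limma). Both genes were more than doubled on the TPM scale, which none of the 8 class I genes was. The receptor chains IFNGR1, IFNGR2, IFNAR1 and IFNAR2 rose by log2 fold changes from 0.28 to 0.56. Beyond the fold limit 5 of the 11 were called higher, and 3 after median-of-ratios scaling, beside 17.9% of all genes on the TPM as deposited. SOCS1, an inhibitor of this signalling, had a log2 fold change of 0.51 and did not pass the test (limma, adjusted p = 0.0715). Of the 22 interferon-stimulated genes tested of a list of 36, 12 rose, 1 fell and 9 did not pass, beside 26.0% and 19.7% of all genes that rose and fell. SAMD9L was highest with a log2 fold change of 1.92, and HERC5 was lowest with -1.10.

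Genes of other molecules that resemble class I or share its light chain were compared next. Of a list of 18 such genes 5 were tested, and 4 of them rose, beside 26.0% of all genes. FCGRT, the neonatal Fc receptor heavy chain, which pairs with B2M, had 90.4 and 93.2 TPM in the controls against 198 and 212 TPM after knockdown (log2 fold change 1.15 at an adjusted p of 1.17e-04 in limma). MR1, which presents vitamin B metabolites and also pairs with B2M, had 15.5 and 15.7 TPM in the controls against 29.0 and 28.5 TPM after knockdown (log2 fold change 0.84 at an adjusted p of 6.07e-04 in limma). CD1D, which presents lipids on B2M, and PROCR rose by log2 fold changes of 0.53 and 0.24. The natural killer cell ligand gene MICB, at 2.47 and 2.64 TPM in the controls against 1.76 and 1.58 TPM after knockdown, did not pass the test.

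Class II molecules present peptides from outside the cell. Of the 6 class II genes tested, 4 rose, beside 26.0% of all genes, with a median log2 fold change of 0.98. The 3 HLA-DR genes among them had log2 fold changes from 1.52 to 1.65, above all 8 class I genes, whereas CD74 at 0.44 was close to B2M at 0.46. Of the 3 HLA-DR genes, HLA-DRA was near the floor, at 0.609 and 0.736 TPM in the controls against 5.08 and 3.03 TPM after knockdown. The limit of alternate copies holds for the HLA-DR genes too. HLA-DRB5 was highest with a log2 fold change of 1.65 and HLA-DOB lowest with -0.11. The class II transactivator gene CIITA, a relative of NLRC5, had 11.4 and 12.0 TPM in the controls against 13.9 and 13.5 TPM after knockdown and did not pass the test (log2 fold change 0.21 at an adjusted p of 0.121 in limma). The ratio of HLA-DRB1 to HLA-B was 0.454 and 0.429 in the controls against 1.20 and 1.30 after knockdown.

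**Figure D4:**
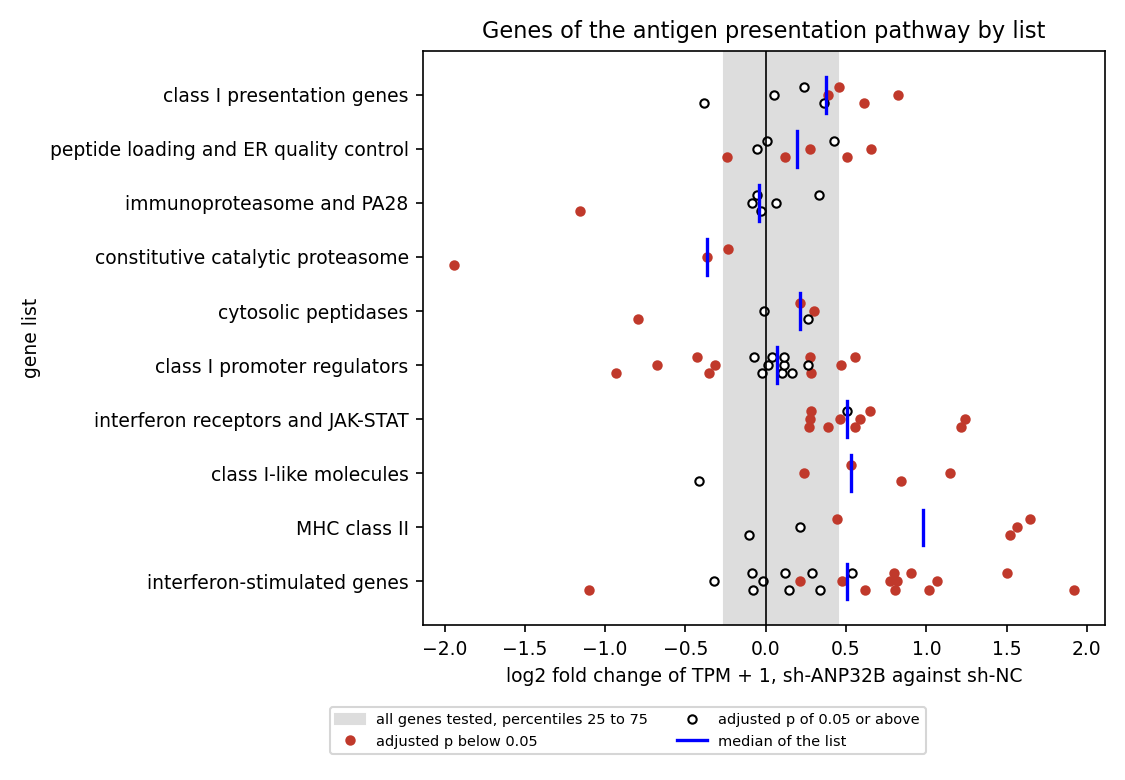
Log2 fold change of TPM + 1, sh-ANP32B against sh-NC, of every tested gene of each list (points, filled red where the adjusted p from limma is below 0.05), with the median of each list as a blue bar and percentiles 25 to 75 of all genes tested in grey. The medians of the interferon receptor and JAK-STAT genes (0.51), the interferon-stimulated genes (0.51), the class I-like molecules (0.53) and the class II genes (0.98) lie to the right of the grey band, and that of the class I presentation genes (0.38) lies inside it.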

How the data were processed

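RNA-seq of 4 libraries of MV4-11 cells was used, 2 of sh-NC and 2 of sh-ANP32B, grouped by the sample titles. Per the labels, the reads were aligned to hg38 with HISAT2 (version 2.0.5). The deposited values are TPM per gene and library, a unit read from the values, since each library sums to between 997271 and 998546. The tool and annotation behind the TPM are not given in the sources used here. TPM keep no read numbers, so depth is unknown, counting error cannot be given, and DESeq2, the test of the study's methods, was not used.

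Identifiers were matched to symbols with GENCODE version 44, and 17290 of 18885 matched. Values were analysed as log2(TPM + 1) with limma (version 3.58.1, R 4.3.3; lmFit and eBayes with a trend) over 16937 genes that reached 1 TPM in 2 or more libraries, with Benjamini-Hochberg adjustment over all of them. Fold changes on this scale understate those of low genes. The test was tried on simulated data first. Ratios, sequences and plots were made with Python 3.11.15, pandas 2.3.3, biopython 1.88 and matplotlib 3.10.9. Promoters were taken from RefSeq.

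The members and lists were chosen with earlier results of these data known. The genes named are ANP32B, the members, the genes of the class I pathway lists, CIITA and CD74, the highest and lowest gene of each other list, and the 5 genes nearest to B2M. Some genes of these lists are counted with their list but not reported here by name. Markers named beyond these, HLA-DRA, HLA-DRB1, NKG7 and KLRF1 among them, were named after their values were seen. The alternatives tried were a replicate block, other filters, a pseudocount of 0.1, quantile normalization, median-of-ratios scaling, identifiers of the same symbol summed, an unadjusted p, other fold limits and each library left out in turn.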

Additional observations from a re-analysis of the deposited data

How the results depend on the processing

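The number of members called higher was 2, and it was 0 with a fold limit of 1, 4 with no fold limit and 3 after quantile normalization, where B2M was 0.52. When single libraries were dropped it ranged from 1 to 2, the lower value without replicate 1 of sh-NC, where the log2 fold change of NLRC5 was 0.49. No member was called lower under any of the 14 alternatives. TAPBP, NLRC5, B2M and HLA-C kept their direction and an adjusted p below 0.05 in limma under all 11 alternative fits, with log2 fold changes from 0.73 to 0.85, 0.49 to 0.73, 0.36 to 0.52 and 0.29 to 0.42. HLA-E, TAP1 and TAP2 ranged from 0.06 to 0.41, 0.07 to 0.61 and -0.61 to -0.16. HLA-B reversed to -0.043 after median-of-ratios scaling (adjusted p = 0.521 from limma). Quantile normalization moved the median of all genes from 0.08 to -0.04, and relative to this median the 4 genes stood at 0.84, 0.58, 0.56 and 0.44, against 0.74, 0.53, 0.38 and 0.31 on the TPM as deposited. Higher genes made up 63.9% of all calls on the TPM as deposited, 49.8% after quantile normalization and 51.0% after median-of-ratios scaling. Over all genes tested 3024 were called higher and 1712 lower, 1136 and 273 with a fold limit of 1, and 4405 and 3342 with none. Over genes, the departures of same-numbered libraries from their groups correlated at -0.0232, so these libraries share only a number, and with the replicate number as a block 2 members were called higher. Of the 22 interferon-stimulated genes tested, 10 were called higher, beside 17.9% of all genes. With 1 TPM asked for in every library 8 were, beside 2467 of 14550 genes. The number was also lower when single libraries were dropped. Summing identifiers of the same symbol changed no member, since each had 1 identifier with a symbol. As the depth is unknown, counting error at the low levels of TAP1 and TAP2 cannot be given.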

Other observations

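The stretch of chromosome 6 that holds the class I members on hg38, from 29722775 to 33314284, was looked at as a whole, a choice made after the values were seen. Of its 88 tested genes, 14 rose and 13 fell in limma at an adjusted p below 0.05, beside 26.0% and 19.7% of all genes, and the median log2 fold change was 0.04. Without the 6 members in it, the 82 other genes had a median of 0.01, beside 0.08 for all genes tested. These values are those of identifiers on the main chromosome 6. Reads assigned to alternate copies are not in them, so the median does not settle how the region moved. The ratio of B2M to CD74, the invariant chain gene of class II, was 1.13 and 1.11 in the controls against 1.14 and 1.12 after knockdown, also chosen after the values were seen. The groups overlapped in this ratio, although both genes rose, with log2 fold changes of 0.46 for B2M and 0.44 for CD74.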
